A study of Mus with 21 samples.

Results

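The comparison was made between brains that carried one deleted copy of *Wapl* together with one deleted copy of *Nipbl* and brains with both genes intact. Its members were chosen by the sample labels, as the 6 libraries labelled Wapl delta; Nipbl delta and the 5 labelled WT, which are 11 of the 21 libraries in the counts table. All embryos were female and were taken at E17.5, and each library held poly(A) RNA of 1 whole brain. Double heterozygotes were Wapl delta/+; Nipbl +/delta in replicates 1 to 4 and Wapl +/delta; Nipbl +/delta in replicates 5 and 6, as the labels write the alleles, and WT embryos were Wapl +/+; Nipbl +/+. The labels do not say what the order of the *Wapl* alleles stands for. The study used separate crosses, in which *Wapl* delta came from the dam or from the sire. Cross and litter were not terms in the fits. The delta allele of *Wapl* lacks the promoter and the first exons and descends from 129SV embryonic stem cells in which *loxP* sites were placed, with Cre from an *E2a-Cre* female and later crosses to C57BL/6J. The *Nipbl* deletion came through sires that carried a *Nipbl* Flox allele and *Stra8-icre*, which is expressed in male germ cells before meiosis, so that every cell of the embryo carries the deletion. The other 10 libraries, from 7 *Wapl* and 3 *Nipbl* single heterozygotes, were used for direct tests on named genes.

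Cohesin is a ring-shaped complex that holds sister chromatids together and, in cells that are not dividing, extrudes loops of chromatin. NIPBL, with its partner MAU2, loads cohesin onto DNA and drives loop extrusion, whereas WAPL, with PDS5 proteins, opens the ring and releases it. Heterozygous loss of *NIPBL* is the most common known cause of Cornelia de Lange syndrome, in which brain development is affected. The question here was how the brain transcriptome differs from WT when the loader and the release factor are both reduced.

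The libraries held between 30605697 and 35818767 counts on genes in WT and between 28686272 and 33128901 in double heterozygotes. Library sizes were scaled with TMM factors in edgeR, and 30552 genes with at least 10 normalized counts over the 21 libraries were tested with edgeR's quasi-likelihood F-test. Calls were made where the adjusted *P* (Benjamini-Hochberg) was below 0.10, which is the threshold in the methods of the study. Counts of the mitochondrial transcript *mt-Nd3* part the libraries into a low and a high set, with WT replicates 4 and 5 and double heterozygotes 5 and 6 in the high set. In double heterozygotes the set follows the written order of the *Wapl* alleles, so these cannot be told apart. Genes of other tissues differed between libraries of both groups. The median of 13 pituitary and pineal genes stood at 1.62 (log2 ratio to the WT mean) in WT replicate 2 and at 1.51 in double heterozygote 6. The median of 18 bone, cartilage and muscle genes stood at 1.39 in WT replicate 3 and at 1.11 in double heterozygote 1. The liver gene *Alb* had 103.7 and 111.7 normalized counts in double heterozygotes 5 and 6 and at most 1.10 in the other 9 libraries, and it is one of the genes called higher. Every one of the 42 gene lists had all of its tested members detected in these 11 libraries, the markers of brain cell types among them.

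*Wapl* (chr14:34672379-34747983 in GRCm38) and *Nipbl* (chr15:8289824-8465315) were both lower in every double heterozygote, in the direction of the labelled genotypes. *Wapl* had 1606, 1494, 1476, 1389 and 1495 normalized counts in WT replicates 1 to 5, and 704, 733, 744, 757, 704 and 774 in double heterozygotes 1 to 6. The groups lay far apart, and the log2 fold change was -1.01 (SE 0.0413, edgeR adjusted *P* = 2.16e-11), or 49.3% of WT. *Nipbl* had 2402, 2147, 2019, 2041 and 2221 normalized counts in WT brains and 1192, 1158, 1180.2, 1211, 1135 and 1244 in double heterozygotes. No double heterozygote came near a WT brain, and *Nipbl* stood at 54.8% of WT (log2 fold change -0.86, SE 0.0431, edgeR adjusted *P* = 4.70e-10). Within the low *mt-Nd3* set the log2 fold changes were -1.05 for *Wapl* and -0.88 for *Nipbl*, and within the high set -0.95 and -0.82. The other loading and release genes on the list, *Mau2*, *Pds5a*, *Pds5b* and *Cdca5*, were not called, with log2 fold changes of 0.041, -0.0035, -0.13 and 0.15. Among 9 genes for the ring itself, its acetylation and the boundary factor CTCF, 1 was called. *Stag1*, a subunit that binds the ring, rose from 2314, 2217, 2055, 2041 and 2068 normalized counts in WT brains to between 2329 and 2513 (median 2352) in double heterozygotes. The ranges met closely but did not overlap, and the log2 fold change was 0.16 (SE 0.0394, edgeR adjusted *P* = 0.0422), but the call was lost without WT replicate 3, 4 or 5. All 9 of these genes had a fold change above 0, with a median of 0.079. None of 10 chromatin and transcription regulators mutated in syndromes like Cornelia de Lange syndrome was called (median -0.015), and the smallest *P* value among them was that of *Taf6* (log2 fold change 0.12, edgeR adjusted *P* = 0.181).

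Over all genes tested, 1001 (3.28%) were called, 248 higher (0.812%) and 753 lower (2.46%). The median log2 fold change was 0.25 for genes called higher and -0.27 for genes called lower, against 0.00070 over all genes tested. For 843 genes (2.76%) the ranges of the groups did not overlap, and 575 of those called were among them, 501 lower and 74 higher. Within the low *mt-Nd3* set edgeR called 672 genes, and with the set as a term in the fit 1018. Within the high set, with 2 libraries a group, 1 gene was called (*Alb*, edgeR adjusted *P* = 0.0173). There 1736 genes had an unadjusted *P* below 0.05, slightly more than a share of 0.05 of the genes tested. The double heterozygotes did not deviate to the same degree. In double heterozygote 3, 150 of the 753 lower genes (19.9%) and 85 of the 248 higher genes (34.3%) lay within the WT range, and in double heterozygote 5 these counts were 77 (10.2%) and 87 (35.1%). In double heterozygotes 1, 2, 4 and 6, between 14 and 36 lower genes and between 8 and 24 higher genes did so. Calls were also made in 11 leave-one-out fits, each without 1 library. Leaving out double heterozygote 5 raised the number of calls to 2504 and leaving out double heterozygote 3 to 1687, whereas leaving out double heterozygote 1, 4 or 6 gave 547, 530 and 680. Without WT replicates 1 to 5 in turn there were 483, 633, 631, 454 and 703 calls. The plot of calls without each library shows both directions. Counts of list members from these fits, given below, are to be read beside these totals. Without double heterozygote 5, 1474 genes were called lower and 1030 higher over all genes tested.

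**Figure D1:**
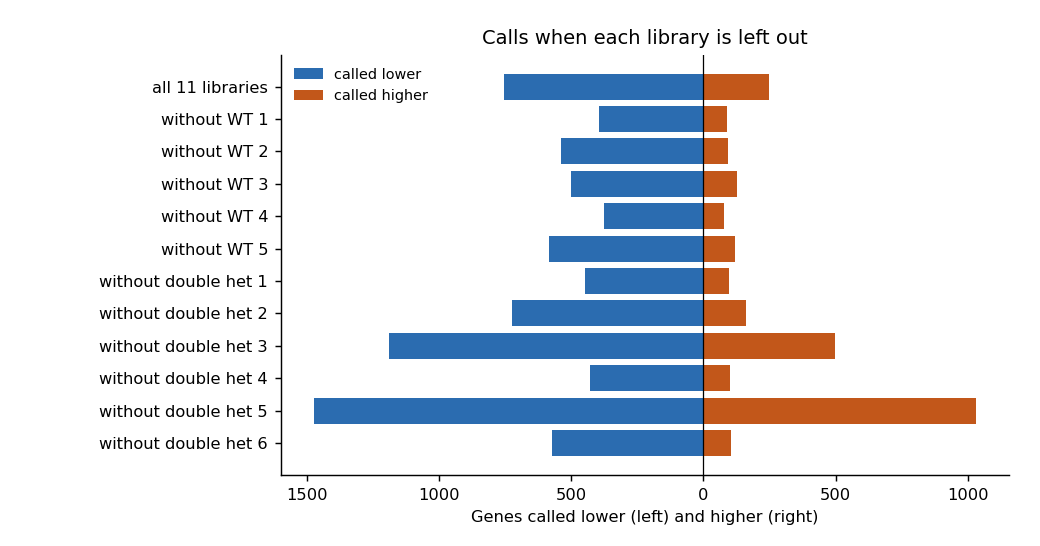
Number of genes called lower (blue, to the left) and higher (orange, to the right) in double heterozygotes (double het) against WT with edgeR, for all 11 libraries and with each library left out. The bars are longest without double heterozygote 5, with 1474 genes lower and 1030 higher.

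Where the groups did not overlap and the mean reached 1 CPM, the 10 largest decreases included *Wapl* and *Nipbl* themselves. The largest was that of *Cd163* (chr6:124304636-124330529), a scavenger receptor for hemoglobin on macrophages at the borders of the brain. It had 110.3, 96.5, 104, 124 and 115 normalized counts in WT brains and 39.5, 48.3, 56.5, 37.0, 31.8 and 20.02 in double heterozygotes 1 to 6, so the highest double heterozygote stood well under the lowest WT brain. The log2 fold change was -1.49 (SE 0.166, edgeR adjusted *P* = 8.83e-05). *Gpr37l1* (chr1:135160250-135167681), a receptor of astrocytes, had 82.5, 73.9, 66.8, 106 and 68.0 normalized counts in WT brains and 20.2, 36.2, 47.9, 13.1, 41.1 and 17.9 in double heterozygotes. Double heterozygotes 3, 5 and 2 were the nearest to WT, and the log2 fold change was -1.40 (SE 0.234, edgeR adjusted *P* = 0.00315). *Dmrt2* (chr19:25672394-25679013), a DM-domain transcription factor known from the forming somites, fell from 45.7, 33.9, 58.9, 47.5 and 46.0 normalized counts to between 13.1 and 25.9 (median 19.8), a log2 fold change of -1.19 (SE 0.179, edgeR adjusted *P* = 0.00139).

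*Npy* (chr6:49822710-49829507), which encodes neuropeptide Y, was the most abundant of these genes apart from *Wapl* and *Nipbl*. It had 836, 845, 817, 934 and 809.8 normalized counts in WT brains and 451, 435, 529, 384, 550.3 and 449 in double heterozygotes, with no overlap and a log2 fold change of -0.85 (SE 0.0746, edgeR adjusted *P* = 4.51e-06). *Tshr*, the thyrotropin receptor, fell from 59.0–92.3 to 24.0–47.9 normalized counts (log2 fold change -1.01, edgeR adjusted *P* = 0.00203). *Dsc3*, a desmosomal cadherin, fell from 59.0–72.9 to 22.2–49.5 (log2 fold change -0.90, edgeR adjusted *P* = 0.00699), and double heterozygote 5 was the closest to WT. *Fcgr2b*, the inhibitory receptor for immunoglobulin G, fell from 41.2–66.0 to 22.2–38.3 (log2 fold change -0.76, edgeR adjusted *P* = 0.0258). The remaining gene, *5830448L01Rik* (chr14:34672971-34674668), lies inside the 5′ part of *Wapl* and overlaps the deleted stretch, whose exact ends were not mapped here. It had a log2 fold change of -1.01 (edgeR adjusted *P* = 0.00558), and since no strand setting is stated, its reads cannot be told apart from those of *Wapl*.

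The 10 largest increases were named by the same rule. *Dbx1* (chr7:49631499-49636835), a homeobox factor of ventricular zone progenitors, had 45.7, 32.8, 32.4, 34.9 and 41.0 normalized counts in WT brains and 102, 60.4, 54.6, 89.3, 47.6 and 105 in double heterozygotes. Double heterozygote 5 lay just above the highest WT brain, and double heterozygotes 6 and 1 stood highest. The log2 fold change was 1.03 (SE 0.201, edgeR adjusted *P* = 0.0103). *Mmp9* (chr2:164940326-164955850), a matrix metalloproteinase, had 411, 469.9, 501, 401 and 477 normalized counts in WT brains and 637, 744, 627, 666, 584 and 688 in double heterozygotes, without overlap. Its log2 fold change of 0.55 (SE 0.0665) had the smallest adjusted *P* value of the 10 increases (edgeR, 0.000185). *Slc14a2*, a urea transporter, rose from 178–224 to 259.7–307 normalized counts (log2 fold change 0.57, edgeR adjusted *P* = 0.000371).

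Further increases were those of 3 transcription factors. *Pou4f3*, which acts in sensory hair cells, rose from 50.3–55.0 to 64.8–111 normalized counts (log2 fold change 0.68, edgeR adjusted *P* = 0.0168). *Six2*, a homeobox gene of kidney progenitors, rose from 21.3–31.0 to 35.9–49.4 (log2 fold change 0.68, edgeR adjusted *P* = 0.01999). *Elf4*, an ETS factor, rose from 108–112 to 121–169.6 (log2 fold change 0.51, edgeR adjusted *P* = 0.00500). The other 4, *Gm9839*, *Gm42970*, *Gm5415* and *Gm16551*, are predicted genes without an assigned role, with log2 fold changes of 0.80, 0.69, 0.61 and 0.49. *Gm9839* was not called in 7 of 11 leave-one-out fits. Within the low *mt-Nd3* set, *Pou4f3*, *Six2* and all 4 predicted genes were not called. Their log2 fold changes there were 0.47 to 0.86 (edgeR adjusted *P* from 0.108 to 0.201). The plot of these genes by library shows the spread within each group.

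**Figure D2:**
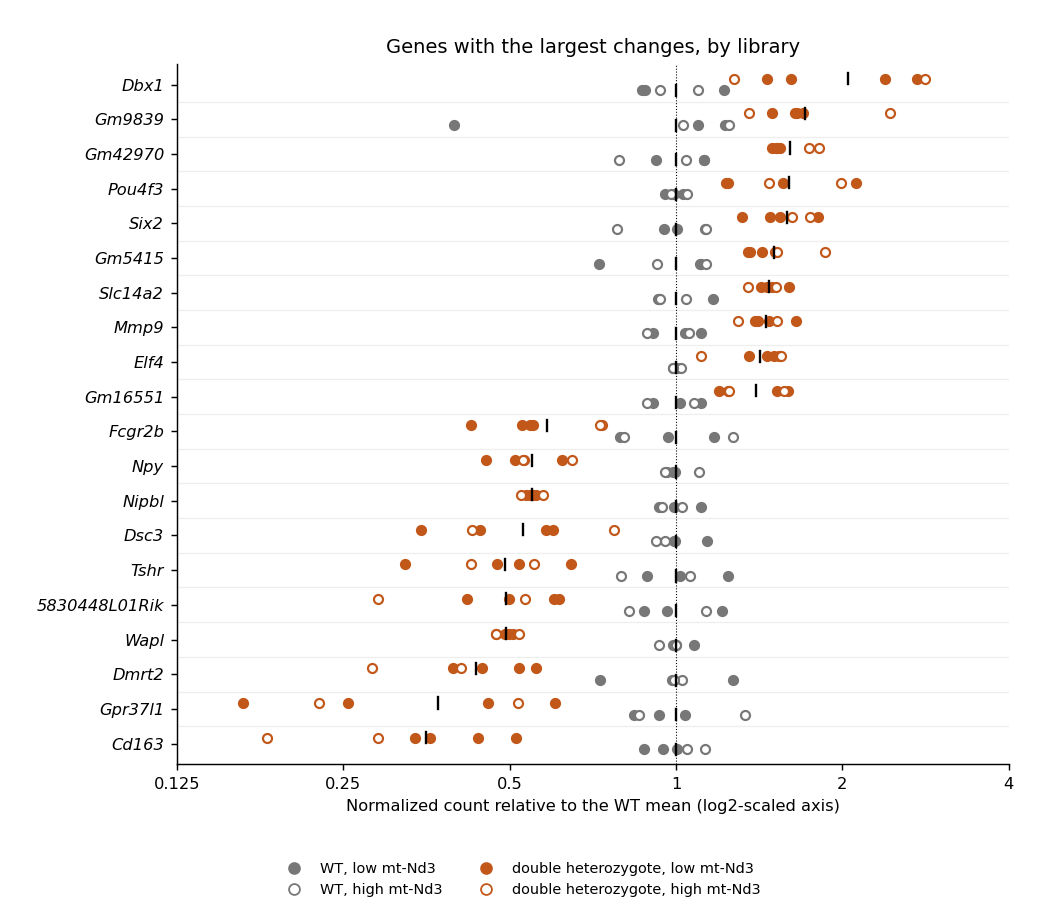
Normalized counts relative to the WT mean (log2-scaled axis) for the 10 largest increases and 10 largest decreases that passed the rule, with 5 WT libraries (grey) and 6 double heterozygotes (orange), open symbols for the high *mt-Nd3* set and black bars for group means. *Wapl* and *Nipbl* form tight clusters in double heterozygotes, whereas *Gpr37l1* runs from 13.1 to 47.9 counts and *Dbx1* from 47.6 to 105.

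The gene lists were read against the shares over all genes, 2.46% lower and 0.812% higher. Those shares take in genes of low count. The share lower was 5.11% and 4.66% in the next to highest and the highest of 5 bins of mean CPM. Among protein-coding genes of at least 1 CPM, it was 12.9% in the longest of 5 length bins. The lists were not matched to all genes by abundance or length. Of 42 lists, protocadherin alpha and beta had the largest shares of members lower. These are cell surface adhesion molecules expressed in combinations that give each neuron its own identity, and choice among their promoters depends on CTCF and cohesin. Of the 22 *Pcdhb* genes, 16 were called lower and none higher, with a median log2 fold change of -0.50, and 12 did not overlap between the groups. *Pcdhb17* had 761, 629, 672, 684 and 642 normalized counts in WT brains and 460.5, 439, 398, 431, 441 and 452 in double heterozygotes. Its double heterozygotes spanned a narrow range far under WT, with a log2 fold change of -0.62 (SE 0.0547, edgeR adjusted *P* = 4.51e-06). *Pcdhb19* had 338, 282, 286, 315 and 319 against 203, 199, 189.7, 197, 213 and 178 normalized counts, a log2 fold change of -0.64 (edgeR adjusted *P* = 8.83e-05). *Pcdhb22* had 627, 598, 666, 635 and 579.9 against 439, 442, 395, 463, 468 and 420.4, a log2 fold change of -0.49 (edgeR adjusted *P* = 8.83e-05). In both of these genes the groups stayed well apart. The *Pcdhb* median stood at -0.49, -0.44, -0.58, -0.52, -0.28 and -0.58 (log2 ratio to the WT mean) in double heterozygotes 1 to 6, with double heterozygote 5 the closest to WT, and at -0.53 and -0.46 (log2 fold change) in the low and high *mt-Nd3* sets. Leaving out 1 library gave between 13 and 19 *Pcdhb* calls. The genes resemble each other in sequence, so counts of single members are less certain than their sum. Summed over the 22 genes, WT brains had between 5050 and 5620 normalized counts and double heterozygotes between 3580 and 4210.

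All 13 *Pcdha* genes tested were called lower, but by less, between -0.18 and -0.14 on the log2 scale. They share their last exons, so the counts of one gene can hold reads of another, and the 13 calls are not separate measurements. *Pcdha12* had 5744, 5313, 5371, 5553 and 5364 normalized counts in WT brains and 4812, 4694, 4992, 4588, 5004 and 4657 in double heterozygotes, without overlap (log2 fold change -0.18, SE 0.0382, edgeR adjusted *P* = 0.0177). Without WT replicate 1 or 4, 1 *Pcdha* gene was called. None of the 22 *Pcdhg* genes was called, with a median of -0.057 and the smallest *P* value in *Pcdhgc3* (log2 fold change -0.074, edgeR adjusted *P* = 0.515). Their fold changes lay close together, between -0.074 and -0.049, and are not to be read as 22 separate results. The *Pcdhg* median was -0.26 in double heterozygote 3 and between -0.068 and 0.033 in the other double heterozygotes. Chromosome 18, which holds the 3 clusters, had 56 of 699 tested genes lower (8.01%). Of these, 29 were *Pcdha* and *Pcdhb* genes. Outside the clusters 27 of 642 were lower (4.21%), against 2.46% over all genes tested. The share was 49 of 956 on chromosome 15 (5.13%), which carries *Nipbl*. It ran from 1.78% (chromosome 8) to 4.21% (chromosome 3) on the other nuclear chromosomes.

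Receptors for glutamate and GABA carry excitatory and inhibitory transmission, and the genes called among them were all lower in double heterozygotes. Of 18 ionotropic glutamate receptor subunits, 6 fell and none rose (median log2 fold change -0.12). *Grik4*, a kainate receptor subunit, had 787, 706, 788, 729 and 769 normalized counts in WT brains and 571, 594, 603, 567, 565 and 538 in double heterozygotes. Its groups did not overlap, and the log2 fold change was -0.39 (SE 0.0459, edgeR adjusted *P* = 0.000148). *Grin2a*, the NMDA receptor subunit that rises as synapses mature, fell from 315–372 to 189.5–268 normalized counts (log2 fold change -0.59, edgeR adjusted *P* = 0.00110), and *Grin3a*, an inhibitory NMDA receptor subunit, fell from 3317–3738 to 2324–3262 (log2 fold change -0.36, edgeR adjusted *P* = 0.0129). Of 8 metabotropic glutamate receptors, 3 fell (median -0.21). They included *Grm5* and *Grm3*, with log2 fold changes of -0.42 and -0.34. *Grm5*, which couples to calcium release, had 3181–3917 normalized counts in WT brains and 2195–3038 in double heterozygotes (edgeR adjusted *P* = 0.00981). Without double heterozygote 5, 10 ionotropic subunits were called lower, and without double heterozygote 3, 5 of the metabotropic receptors.

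Of 16 GABA-A receptor subunits, 7 fell and none rose (median -0.20). *Gabra5*, a subunit abundant before birth, had 1679, 1692, 1689.5, 1695 and 1627 normalized counts in WT brains and 1202, 1330.5, 1471, 1152, 1593 and 1307 in double heterozygotes. The groups did not overlap, with a log2 fold change of -0.31 (SE 0.0656, edgeR adjusted *P* = 0.0182). Without WT replicate 1, 3 of the subunits were called. The medians of the 3 receptor lists were -0.12, -0.19 and -0.23 in the low *mt-Nd3* set and -0.16, -0.24 and -0.25 in the high set, in the order given.

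The channel and synapse genes called were likewise all lower. Of 36 potassium channel genes, 13 were lower (median -0.16). They included *Kcnd2*, which carries A-type current, with 2439–2828 normalized counts in WT brains and 1924–2321 in double heterozygotes (log2 fold change -0.28, edgeR adjusted *P* = 0.00429), and *Kcnj3*, a G protein-gated channel, with 852–895 and 679–801 (log2 fold change -0.25, edgeR adjusted *P* = 0.00604). *Kcnq5*, an M-current channel, changed by -0.34. Of 24 voltage-gated sodium and calcium channel genes, 2 were lower, among them *Cacna1i* with a log2 fold change of -0.34. *Cacna1i*, a T-type calcium channel, had 1502–1657 normalized counts in WT brains and 1039–1452 in double heterozygotes. Without double heterozygote 1, 5 potassium channels were called, and without double heterozygote 5, 19. The sodium and calcium channel list gave 1 call without WT replicate 3, 4 or 5 or double heterozygote 1 or 4 and 6 calls without double heterozygote 3.

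Of 34 genes for synaptic vesicles and release, 8 were lower (median -0.12), and of 36 for synaptic adhesion and scaffolds, 11 (median -0.11). *Cplx2*, which controls vesicle fusion, had 8504, 8578, 8725, 9105 and 8449 normalized counts in WT brains and 7241, 7124, 7283, 6751, 7921 and 7089 in double heterozygotes. All 6 were under the lowest WT brain (log2 fold change -0.25, SE 0.0434, edgeR adjusted *P* = 0.00444). The vesicle proteins *Sv2c* and *Syt4* changed by -0.34 and -0.25, with ranges that overlapped between the groups. *Cntnap4*, a neurexin-like adhesion protein, fell from 1262–1379 to 973–1183 normalized counts (log2 fold change -0.29, edgeR adjusted *P* = 0.00280). *Dlgap1*, a scaffold of the postsynaptic density, and *Slitrk2*, a synapse organizer, changed by -0.26 and -0.25. Of 39 axon guidance genes, 7 were lower, among them the semaphorins *Sema3c* (-0.41), *Sema3e* (-0.34) and *Sema5a* (-0.22). Leaving out 1 library gave between 4 and 17 calls for the vesicle list, between 5 and 14 for the adhesion list and between 3 and 9 for the guidance list, with the fewest without WT replicate 1 in each (for the vesicle list also without WT replicate 4) and the most without double heterozygote 3 or 5.

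**Figure D3:**
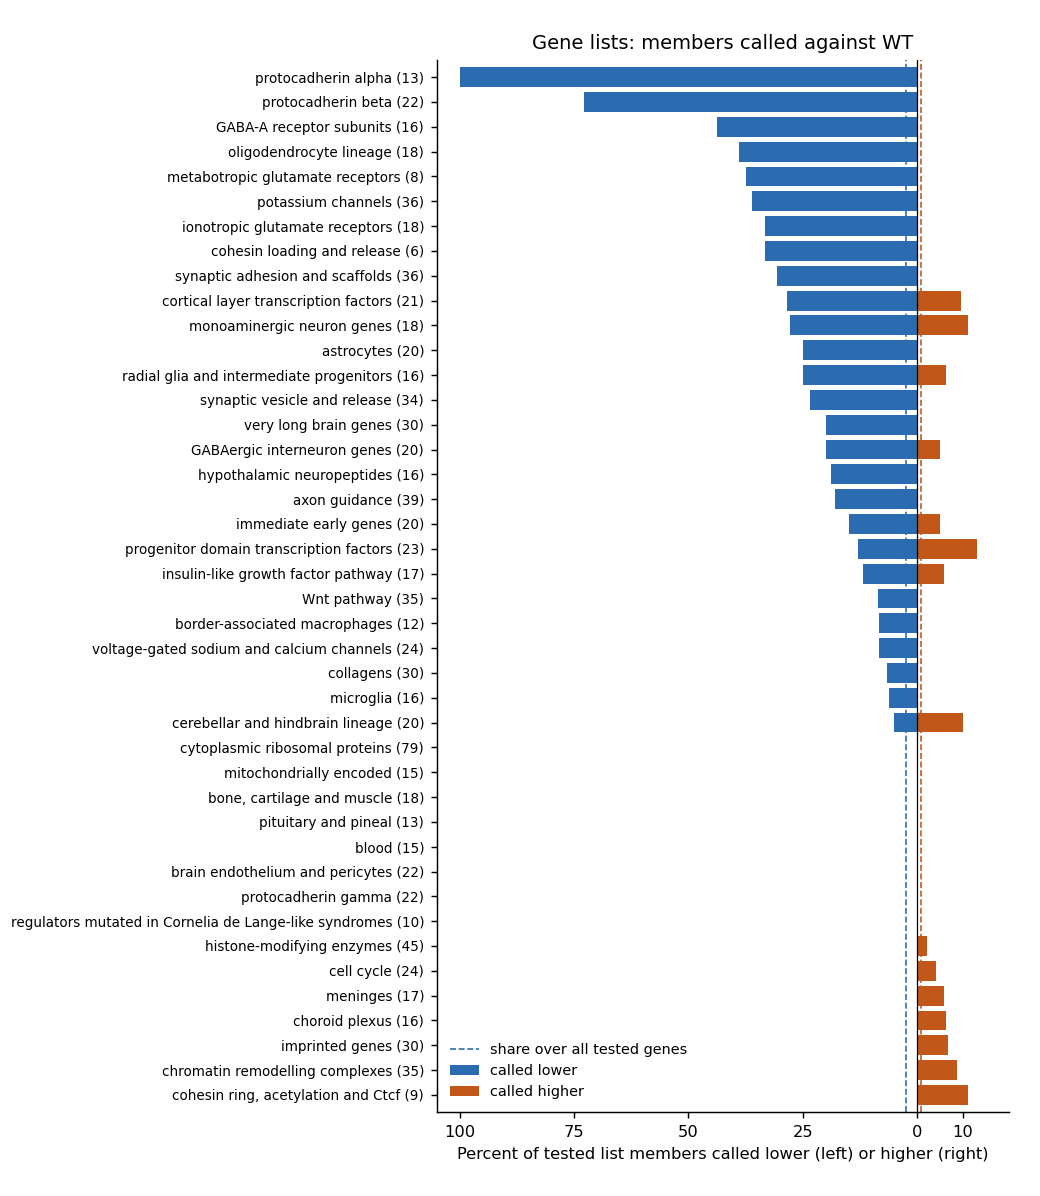
Percent of tested members called lower (blue, to the left) or higher (orange, to the right) for 42 gene lists, with the number tested in parentheses and dashed lines at the shares over all genes tested, 2.46% lower and 0.812% higher. Protocadherin alpha and beta, GABA-A receptor subunits and oligodendrocyte genes have the longest bars to the left.

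Neuronal identity genes moved in both directions. Of 21 transcription factors of cortical layers, 6 were lower and 2 higher (median -0.035). *Mef2c*, which controls the maturation of cortical neurons, had 7242, 6739, 6417, 7053 and 5645 normalized counts in WT brains and 3217, 4803, 5297, 3772, 5363 and 3569 in double heterozygotes. Double heterozygotes 5, 3 and 2 came closest to the lowest WT brain, and the log2 fold change was -0.60 (SE 0.110, edgeR adjusted *P* = 0.00708). *Etv1*, a marker of layer 5 neurons, fell from 1212–1317 to 953–1147 normalized counts (log2 fold change -0.30, edgeR adjusted *P* = 0.00167), and *Ldb2*, a cofactor of subcerebral neurons, from 1599.6–1831 to 1292–1594 (log2 fold change -0.29, edgeR adjusted *P* = 0.00600). The 2 that rose were the nuclear factors *Nfia* (0.18, edgeR adjusted *P* = 0.0452) and *Nfib* (0.19, edgeR adjusted *P* = 0.0218), which also act in glial differentiation. Of these factors, 1 was called higher without WT replicate 1, 2, 4 or 5 or double heterozygote 1, 4 or 6, and 4 were without double heterozygote 5. Of 20 immediate early genes, which neurons induce on activity, *Nr4a2* (-0.39), *Fosl2* (-0.39) and *Homer1* (-0.19) were lower and *Btg2* (0.29) was higher, of which *Homer1* lost its call without WT replicate 1 or 4. In 9 of 11 leave-one-out fits, all but those without double heterozygote 3 or 5, no gene of this list was called higher.

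Among 20 genes of GABAergic interneurons, 4 were lower and 1 higher, and the median was 0.014. Besides *Npy*, the peptide *Sst* and the factor *Sp8* changed by -0.19 and -0.23. Without WT replicate 1 or double heterozygote 1, 1 of these genes was called lower, and without double heterozygote 3 or 5, 6 were. *Sp9*, a factor of newly born interneurons, rose from 650.0, 560.2, 612, 574 and 572 normalized counts in WT brains to 748, 780.5, 694, 817, 674 and 814 in double heterozygotes, without overlap (log2 fold change 0.35, SE 0.0555, edgeR adjusted *P* = 0.00204). Of 18 genes of monoamine systems, 5 were lower and 2 higher. The serotonin receptor *Htr1a*, which is inhibitory, had 300.3, 301, 293, 301 and 281 normalized counts in WT brains and 165, 202, 191, 155, 206 and 180.2 in double heterozygotes. The groups stood far apart, and the log2 fold change was -0.68 (SE 0.0761, edgeR adjusted *P* = 9.10e-05). *Htr2a* fell from 218–259 to 152–195 (log2 fold change -0.45, edgeR adjusted *P* = 0.00381) and the dopamine receptor *Drd1* from 229–277 to 177–216 (log2 fold change -0.39, edgeR adjusted *P* = 0.00750). The transporters for dopamine and noradrenaline, *Slc6a3* and *Slc6a2*, changed by -0.47 and -0.29, and the factors *Gata3* and *En1* by 0.33 and 0.31. Without WT replicate 1, 2 or 5 or double heterozygote 1, 1 gene of these systems was called higher. Of 16 hypothalamic neuropeptides, *Avp* (-0.53), *Nts* (-0.61) and *Sst* fell, the last of which was not called in 6 of 11 leave-one-out fits.

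Most genes of progenitors and of the hindbrain had fold changes above 0, with few calls. Of 23 transcription factors that mark progenitor domains, 17 had a fold change above 0 (median 0.20). *Dbx1*, *Neurog2* (0.56, edgeR adjusted *P* = 0.0391) and *Irx3* (0.41, edgeR adjusted *P* = 0.0856) were called higher, and *Dmrt2*, *Olig1* and *Olig2* lower. The median by library was 0.24, 0.16, 0.071, 0.31, -0.034 and 0.35 in double heterozygotes 1 to 6, so that double heterozygote 5 lay near WT and double heterozygote 6 farthest away. Of 20 genes of the cerebellar and hindbrain lineage, 16 were above 0 (median 0.21), and *Hoxb3* (0.39) and *Lhx5* (0.32) were called, although they dropped out in 8 and 6 of 11 leave-one-out fits. *Calb1*, the calcium-binding protein of Purkinje cells, went the other way, from 877, 800.4, 854, 863 and 774 normalized counts in WT brains to 596, 569.7, 666, 522, 617 and 475 in double heterozygotes (log2 fold change -0.53, SE 0.0690, edgeR adjusted *P* = 0.000390). Even the highest double heterozygote stayed under the lowest WT brain for this gene.

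All 24 cell cycle genes had a fold change above 0 (median 0.12), but *Cdk1* alone was called (log2 fold change 0.25, edgeR adjusted *P* = 0.0747), and it dropped out in 8 of 11 leave-one-out fits. The cell cycle median stood at 0.22, -0.0094, -0.10, 0.36, -0.0060 and 0.17 in double heterozygotes 1 to 6. Double heterozygotes 4, 1 and 6 were above every WT library, whose medians lay between -0.083 and 0.055, and the other 3 were within that range or just under it. Of 16 genes of radial glia and intermediate progenitors, 9 had a fold change above 0 and 7 below (median 0.10). Their summed counts went the other way from the median, from 67900 to 70600 in WT brains and from 62400 to 65900 in double heterozygotes. Of the 16, *Slc1a3* (-0.26), *Hopx* (-0.32), *Tnc* (-0.20) and *Ptprz1* (-0.24) were called lower. *Insm1* (0.35), a factor of newborn neurons, was called higher. Without double heterozygote 5, the number of members called higher was 9 for hindbrain genes, 9 for progenitor domains and 7 for radial glia and intermediate progenitors, and without double heterozygote 3, 4 cell cycle genes were called. Without WT replicate 4 or double heterozygote 4, 1 progenitor domain gene was called higher, and *Insm1* was not called without WT replicate 2, 3 or 4 or double heterozygote 1 or 4.

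The glial genes called were all lower. Of 20 astrocyte genes, 5 fell and none rose, with 19 below 0 (median -0.17). They were *Gpr37l1*, the water channel *Aqp4* (-0.56), the bicarbonate transporter *Slc4a4* (-0.46), the folate enzyme *Aldh1l1* (-0.30) and the glutamate transporter *Slc1a3* (-0.26), and the last is shared with radial glia. *Aldh1l1* had 2535, 2538, 2521, 2643 and 2614 normalized counts in WT brains and 2082, 2058, 1948, 1956, 2369 and 2059 in double heterozygotes. Double heterozygote 5 was the highest, yet still under every WT brain (SE 0.0481, edgeR adjusted *P* = 0.00275). The astrocyte median by library was -0.31, -0.17, -0.057, -0.39, -0.0080 and -0.26, and 14 of the genes were called lower without double heterozygote 5. Summed over the list, WT brains had between 43700 and 47200 normalized counts and double heterozygotes between 35700 and 43900. In bulk samples, fewer cells of a type and less RNA per cell cannot be told apart.

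Of 18 genes of the oligodendrocyte lineage, 7 were lower and none higher (median -0.20). The median by library was -0.18, -0.19, -0.14, -0.30, -0.26 and -0.29 in double heterozygotes 1 to 6, below 0 in each. *Gpr17*, a receptor of cells committed to become oligodendrocytes, had 1098, 939.9, 1006, 1153 and 976 normalized counts in WT brains and 622, 815, 888, 661, 749 and 639.6 in double heterozygotes. The groups did not overlap, and the log2 fold change was -0.49 (SE 0.0806, edgeR adjusted *P* = 0.00275). *Bcas1*, which marks early myelinating cells, fell from 263–305 to 165–233 normalized counts (log2 fold change -0.46, edgeR adjusted *P* = 0.00465). *Olig1*, a factor of the lineage, fell from 1842–2009 to 1432–1751 (log2 fold change -0.31, edgeR adjusted *P* = 0.00275). Without 1 library there were between 6 and 10 calls. The summed level of the list was 13800 to 14700 normalized counts in WT brains and 11600 to 13200 in double heterozygotes.

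Among immune cells of the brain, *Cd163* was the 1 gene called of 12 for border-associated macrophages, whose median was -0.15 and whose summed counts ran from 3440 to 3830 in WT brains and from 2980 to 3580 in double heterozygotes. *Mrc1*, *Lyve1* and *F13a1*, other genes of these cells, had log2 fold changes of -0.15, 0.085 and -0.020 without a call. Of 16 microglial genes, 14 were below 0 and *Cx3cr1*, the fractalkine receptor, was called. It had 382, 330.4, 349, 458 and 388 normalized counts in WT brains and 271, 277, 306, 273, 305 and 289.8 in double heterozygotes, and the ranges did not overlap (log2 fold change -0.40, SE 0.0763, edgeR adjusted *P* = 0.00910). The microglial median was -0.34, -0.19, -0.089, -0.38, 0.038 and -0.14 in double heterozygotes 1 to 6, lowest in double heterozygotes 4 and 1 and above 0 in double heterozygote 5, without which 5 of the genes were called lower. Their summed level was 5180 to 5950 normalized counts in WT brains and 4830 to 5350 in double heterozygotes.

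Lists of other tissues gave few calls. Of 17 meningeal genes, *Crabp2*, a carrier of retinoic acid, was higher (0.27, edgeR adjusted *P* = 0.0331), and of 16 choroid plexus genes, the homeobox gene *Otx2* (0.25, edgeR adjusted *P* = 0.0639), which was not called in 6 of 11 leave-one-out fits. *Crabp2* lost its call without WT replicate 1. None of 22 endothelial and pericyte genes, 15 blood genes, 13 pituitary and pineal genes or 18 bone, cartilage and muscle genes was called, although without double heterozygote 5, 3 endothelial and 3 bone, cartilage and muscle genes were higher. In each of these lists, some leave-one-out fits called 1 gene lower. The blood gene *Slc4a1* was called lower within the low *mt-Nd3* set (log2 fold change -1.17, edgeR adjusted *P* = 0.0112). Summed counts of the choroid plexus list ran from 15200 to 30200 in WT brains and from 20600 to 24900 in double heterozygotes, those of the blood list from 18000 to 27500 and from 15300 to 25500, and those of the bone, cartilage and muscle list from 2980 to 6240 and from 2620 to 9370. The bone sialoprotein gene *Ibsp* had 41.2, 22.6, 119.8, 27.2 and 9.00 normalized counts in WT brains and 711, 661, 67.1, 14.2, 25.2 and 13.7 in double heterozygotes (log2 fold change 2.5, SE 0.881, edgeR adjusted *P* = 0.185). Double heterozygotes 1 and 2 carried nearly all of it. Of 30 collagen genes, 2 were lower, *Col25a1* (-0.27), a collagen made by neurons, and *Col23a1* (-0.22), the last not called without WT replicate 4. Without double heterozygote 5, 6 collagen genes were called higher. The part of these tissues in the calls of neural genes was not tested.

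**Figure D4:**
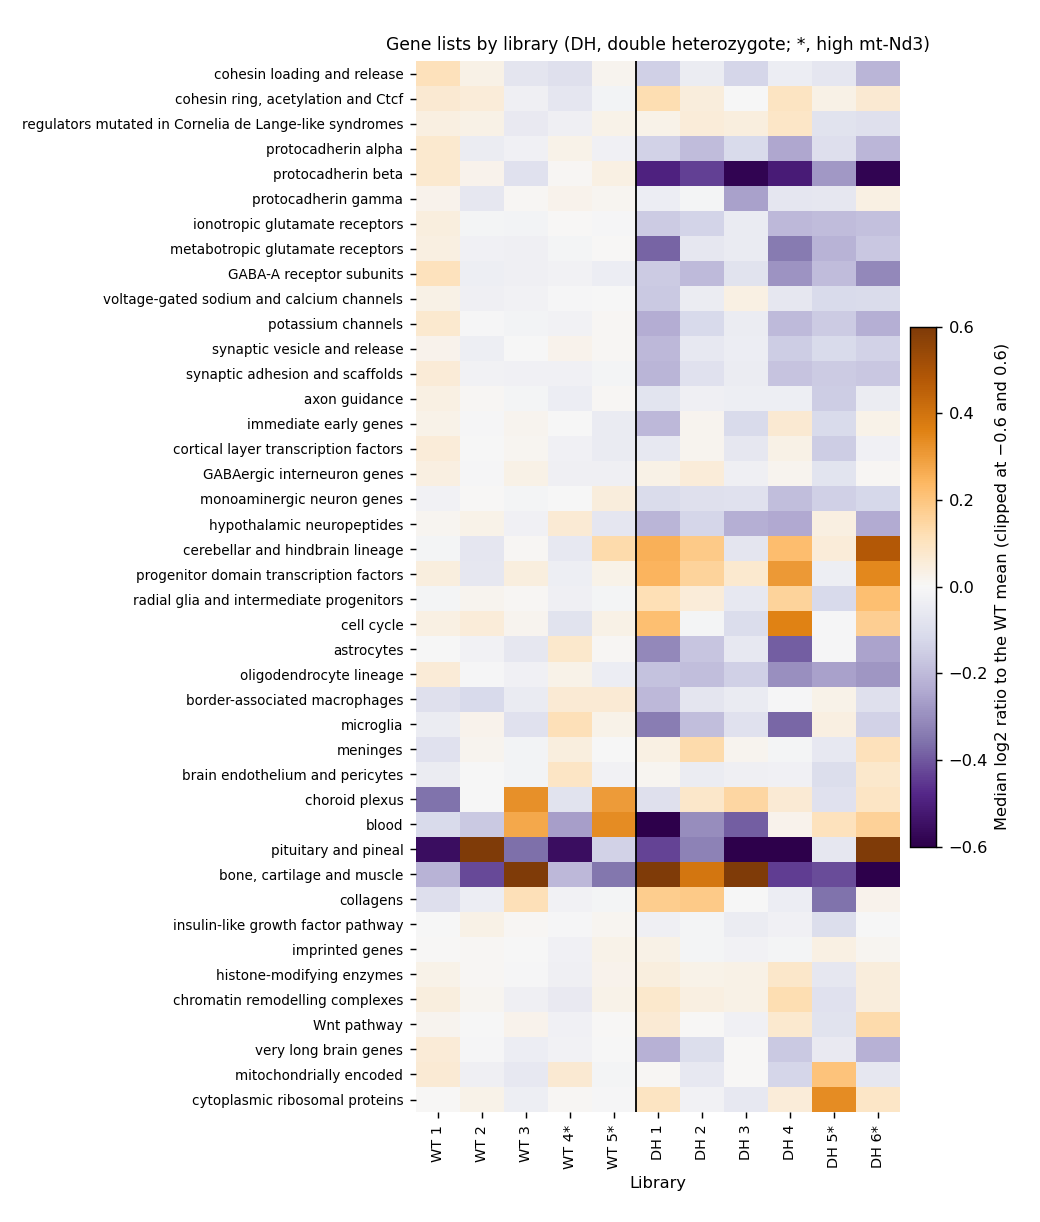
Median log2 ratio to the WT mean of each gene list (rows) in 5 WT libraries and 6 double heterozygotes (DH), on a scale clipped at -0.6 and 0.6, with asterisks on libraries of the high *mt-Nd3* set. Protocadherin beta is low in all 6 double heterozygotes, whereas the pituitary and bone lists change from library to library in both groups. Double heterozygote 5 is at or near WT for the progenitor domain, cell cycle, astrocyte and microglial lists. Its radial glia and intermediate progenitor median is -0.12, below the WT libraries (-0.029 to 0.014).

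Growth and chromatin genes gave few calls. Of 17 genes of the insulin-like growth factor pathway, the RNA-binding gene *Igf2bp2* rose (0.38, edgeR adjusted *P* = 0.0345) and the binding protein *Igfbp5* (-0.22, edgeR adjusted *P* = 0.0289) and the substrate *Irs4* (-0.21, edgeR adjusted *P* = 0.0860) fell, of which *Irs4* was not called in 8 of 11 leave-one-out fits. Without WT replicate 4, none of these 3 was called. Of 30 imprinted genes, 2 were higher. *H19*, a maternally expressed noncoding RNA, had 7613, 8563, 9103, 7821 and 8609.8 normalized counts in WT brains and 12092, 9947, 9637, 9491, 9312 and 10572 in double heterozygotes, without overlap (log2 fold change 0.30, SE 0.0621, edgeR adjusted *P* = 0.0170). *Grb10*, which restrains insulin signalling, rose from 3898–4111 to 4178–4856 (log2 fold change 0.17, edgeR adjusted *P* = 0.0284), but it was not called without WT replicate 1. Without double heterozygote 3 or 5, 4 imprinted genes were called higher. Of 45 histone-modifying enzymes, *Ezh2* was higher (0.22, edgeR adjusted *P* = 0.0496), and of 35 members of remodelling complexes, the SWI/SNF-related genes *Actl6a* (0.19), *Smarce1* (0.18) and *Smarcd3* (0.14) were higher. Among 11 leave-one-out fits, 6 did not call *Ezh2* and 9 did not call *Smarcd3*. Without double heterozygote 5, 10 genes on each of these chromatin lists were called higher, and without WT replicate 4, none was. Over all genes tested, these fits called 1030 and 77 genes higher, against 248 with all 11 libraries. Of 35 Wnt pathway genes, 3 were lower, the agonist *Rspo2* (-0.45), the ligand *Wnt7b* (-0.22) and *Dkk3* (-0.22), which was not called without WT replicate 1 or 4 or double heterozygote 1 or 4. Without double heterozygote 5, 6 Wnt pathway genes were called higher. None of 15 mitochondrially encoded genes was called (median -0.017). Nor was any of 79 cytoplasmic ribosomal protein genes, although all 79 were above 0 (median 0.10), and their median stood at 0.33 in double heterozygote 5 and between -0.057 and 0.10 in the other 5.

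Genes called lower were more often long. Among 14158 protein-coding genes whose mean reached 1 CPM and whose length the reference gave, split by length into 5 bins of equal size, 366 of the 2832 longest (79.9 to 2390 kb) were lower (12.9%) and 30 were higher (1.06%). In the bin of the shortest genes (0.403 to 8.47 kb), 75 of 2832 were lower (2.65%) and 53 higher (1.87%). The share lower in the longest bin was 8.37% in the low *mt-Nd3* set, and it lay between 6.81% and 21.0% when 1 library was left out, lowest without WT replicate 1 and highest without double heterozygote 5, against 1.84% to 5.97% in the shortest bin. The shift in level was small, with a median log2 fold change of -0.049 in the longest bin and 0.037 in the shortest. Double heterozygote 3 differed from the rest, with a median of -0.031 for short genes and -0.015 for long genes, whereas the other 5 lay between -0.086 and -0.051 for long genes. Of 30 very long brain genes, 6 were lower (median -0.11), with 1 call without WT replicate 1 or double heterozygote 4 and 11 without double heterozygote 3 or 5. *Csmd3*, a complement-domain protein of neurons, had 836, 760.3, 704, 749 and 739.8 normalized counts in WT brains and 591, 651, 650.5, 579, 618 and 617 in double heterozygotes, without overlap (log2 fold change -0.29, SE 0.0489, edgeR adjusted *P* = 0.00416). *Pcdh15* and *Nrg3* changed by -0.21 and -0.18, and each dropped out in 5 of 11 leave-one-out fits. The share lower also differed by abundance, and ran from 0.0655% in the lowest of 5 bins of mean CPM over all genes tested to 5.11% in the next to highest and 4.66% in the highest, and the part of abundance in the length shares was not tested.

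**Figure D5:**
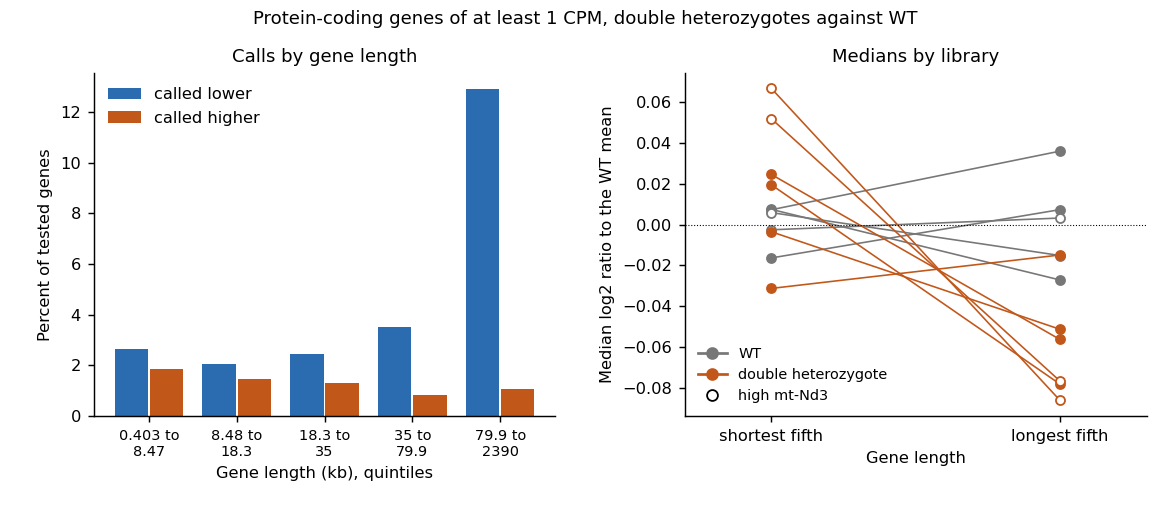
Left, percent of tested protein-coding genes called lower (blue) or higher (orange) in double heterozygotes, by 5 bins of gene length in kb. Right, median log2 ratio to the WT mean of the shortest and the longest bin in each library, WT in grey and double heterozygotes in orange, with open symbols for the high *mt-Nd3* set, where 5 of 6 double heterozygotes run downward by more than any WT library and double heterozygote 3 runs slightly upward.

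Genes were also counted by their distance from the deletions. Within 10 Mb of *Nipbl*, 9 of 79 tested genes were called (11.4%, against 3.28% over all genes), 7 of them lower. They included *Lifr* (chr15:7090610-7197489), a cytokine receptor subunit (-0.20, edgeR adjusted *P* = 0.0108), *Slc1a3* (chr15:8634124-8710807), *Npr3* (chr15:11839896-11907837), a clearance receptor for natriuretic peptides (-0.46, edgeR adjusted *P* = 0.0114), and *Plcxd3* (chr15:4375491-4575585; -0.90, edgeR adjusted *P* = 0.0652), which were picked after their values were seen. Within 10 Mb of *Wapl*, 5 of 155 were called (3.23%), a share near that over all genes. One of them, *A930038B10Rik* (chr14:34760195-34770101), lies just past the 3′ end of *Wapl* and had a log2 fold change of -0.71 (edgeR adjusted *P* = 0.0898).

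Direct tests compared double heterozygotes with the single heterozygotes, for the named genes. All 3 *Nipbl* heterozygotes were in the low *mt-Nd3* set, and 5 of the 7 *Wapl* heterozygotes in the high set, so each direct test was also run with the set as a term, which was chosen after seeing the data. Against the 3 *Nipbl* heterozygotes, edgeR called 2 genes of 30552 (0.00655%) in double heterozygotes, *Wapl* and *Pcdhb17*. An unadjusted *P* below 0.05 was found for 1259 genes, fewer than the share of 0.05 that arises where no gene differs. *Pcdhb17* had normalized counts of 301, 329 and 314 in *Nipbl* heterozygotes, below all 6 double heterozygotes, and was higher in double heterozygotes by a log2 difference of 0.48 (edgeR adjusted *P* = 0.0670). With the set as a term the difference was 0.46 and the call was lost (edgeR adjusted *P* = 0.368), which left *Wapl* as the 1 gene called. Then 1094 genes had an unadjusted *P* below 0.05, again under that share. The median difference of the 22 *Pcdhb* genes was 0.30, with 1 gene called. *Wapl* differed by a log2 difference of -0.91 (edgeR adjusted *P* = 2.26e-07). Against the 7 *Wapl* heterozygotes, 311 genes (1.02%) were called, 248 lower and 63 higher, and 28 of the 103 genes chosen by the rule were among them. With the set as a term, 162 were called, 130 lower and 32 higher, of which 151 had been called without it, and 24 of the 28 kept their call. *Pcdhb17*, *Pcdhb22*, *Pcdhb19*, *Npy*, *Cd163*, *Dmrt2*, *Grik4* and *Htr1a* were lower in double heterozygotes, with log2 differences of -0.81, -0.61, -0.60, -0.79, -1.24, -1.22, -0.29 and -0.52 (edgeR adjusted *P* from 5.13e-08 to 0.00532, and from 1.82e-07 to 0.0211 with the set as a term). *Stag1* and *Slc14a2* were higher, by 0.28 (edgeR adjusted *P* = 0.000974) and 0.45 (edgeR adjusted *P* = 0.00392). For *Gpr37l1*, *Mef2c*, *Mmp9* and *Dbx1* the difference from *Wapl* heterozygotes was -1.05, -0.33, 0.054 and 0.26, and none passed the threshold (edgeR adjusted *P* = 0.116, 0.321, 0.905 and 0.757). With the same WT libraries as controls, the *Pcdhb* median was -0.50 in double heterozygotes, -0.79 in *Nipbl* heterozygotes and 0.11 in *Wapl* heterozygotes. The corresponding medians of the astrocyte list were -0.17, -0.33 and -0.14, and those of the GABA-A receptor list were -0.20, -0.38 and -0.10.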

How the data were processed

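The authors prepared libraries from poly(A) RNA of snap-frozen whole brains, sequenced paired ends of 101 bases, trimmed them with cutadapt 2.4, aligned them to mm10 (GRCm38.p6) with STAR 2.5.3a and deposited raw counts per gene from featureCounts of Subread 1.6.4, while the strand setting is not given in the sources used here. Of 55335 genes, 30552 (10 or more normalized counts in total over 21 libraries) were tested on 11 libraries (edgeR 4.0.16, R 4.3.3, TMM, quasi-likelihood test, Benjamini-Hochberg adjusted *P* below 0.10). Normalized counts are counts divided by effective library size and scaled to the mean size. The alternatives (DESeq2 1.42.0 among them) are given at the end. Replicates were separate embryos. Coordinates, lengths and biotypes came from a RefSeq table of GRCm38.p6, matched by symbol (24076) or synonym (260). Named genes were *Wapl*, *Nipbl*, the 10 called genes with the largest increase and the 10 with the largest decrease, given 1 CPM or more and no overlap, and from each list the 3 called members with the smallest *P* (with none called, the member with the smallest *P*). Members and lists were chosen with earlier results of these data known, and the liver list after *Alb* was seen. Some genes that the rule takes are not reported here. A library that the authors left out was not analysed here.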

Additional observations from a re-analysis of the deposited data

Results flagged for a closer look

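A sample that stood apart from its group was looked for in 180 groups of 5 or 6 libraries, over 90 genes, and 13 were found, where chance gives about 1 in 20. Each value is the gap to the nearest library of the group over the whole range of the group. *Gm9839* had 10.8 normalized counts in WT replicate 1 with the next library at 28.0 (0.743) and 66.3 in double heterozygote 5 with the next at 46.1 (0.687), and *Gm5415* had 129 in the same double heterozygote with the next at 105 (0.668). *Aldh1l1* stood at 2369 in double heterozygote 5 (0.682), nearer to WT than in the other double heterozygotes. *Stag1* was highest in double heterozygote 3 (0.807) and *Irs4* in double heterozygote 1, at 443 against 374 in the next library (0.763). In WT replicate 1, *Slitrk2* (0.751) was above the rest of the group. In WT replicate 4, *Npy* was high (934, the next at 845, value 0.713), as was *Hopx* (0.754), and *Igf2bp2* was low (765, the next at 857, value 0.731). In WT replicate 5, *Hoxb3* was high (586, the next at 449, value 0.770) and *Gabra5* low (0.771). *Pcdh15* was low in WT replicate 2 (0.745).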

How the results depend on the processing

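Over all alternatives run, none of the 103 genes chosen by the rule reversed a call. The edgeR counts moved by less than 1.5 times with DESeq2 size factors (1008 genes), filterByExpr (1181), no filter (1217), the *mt-Nd3* set as a term (1018) and without genes near the deletions (980). DESeq2 gave 1480 calls, 457 higher and 1023 lower, and left 13038 genes without an adjusted *P*. At an adjusted *P* below 0.05 there were 547 calls, 99 higher and 448 lower. A fit over all 4 groups gave 602, 148 higher and 454 lower. The low *mt-Nd3* set gave 483 lower, and the high set 1 gene, higher, and 0 lower (1736 with an unadjusted *P* below 0.05). Of genotype by set interactions, edgeR called 0 genes (1443 with an unadjusted *P* below 0.05). Where no gene differs, a share of 0.05 of the genes tested has such a *P*. The 1736 genes were slightly above that share and the 1443 below it. Double heterozygotes written delta/+ against all WT gave 1814 calls, 611 higher and 1203 lower, and the pair written +/delta gave 410 higher and 459 lower. Leaving out 1 library gave 454 to 2504 calls, 77 to 1030 higher and 377 to 1474 lower. With the *mt-Nd3* set as a term, chosen after seeing the data, direct tests called 1 gene (before, 2) against *Nipbl* heterozygotes and 162 (before, 311) against *Wapl* heterozygotes. The cause of these differences in the number of calls was not tested. In the lowest of 5 bins of mean CPM, 0.0655% of genes was called lower, and the effect of depth on this share was not tested.

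The replicate number as a block, over replicates 1 to 5, gave 622 calls, 100 higher and 522 lower, with 1 *Pcdha* call and 16 *Pcdhb* calls. Pairing by number was not seen, since same-numbered libraries correlated between -0.197 and 0.084 over 14567 genes and 1 of 5 WT libraries correlated best with its own number. The numbers do follow the *mt-Nd3* set, as WT replicates 4 and 5 and double heterozygotes 5 and 6 are the high ones.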

Other observations

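Genes of other organs were present in single libraries of both groups. Of 10 liver genes, chosen after *Alb* was seen, 9 were tested and 1 was called. *Afp*, the fetal serum protein, had 40.2 and 41.1 normalized counts in double heterozygotes 5 and 6 and between 1 and 6.28 in the other 9 libraries. *Ahsg*, which encodes fetuin-A, had 37.4 and 33.7 in the same libraries and at most 0.98 elsewhere, and *Fgb*, a fibrinogen chain, 12.2 and 8.43 against at most 1.92. These are the double heterozygotes written Wapl +/delta; Nipbl +/delta, and both are in the high *mt-Nd3* set, whose WT libraries held at most 1 normalized count of *Alb*. *Apoa1* and *Trf*, which brain cells also express, had log2 fold changes of 0.12 and -0.097 without a call.

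Growth hormone, *Gh*, a product of the anterior pituitary, had 2109.6 normalized counts in WT replicate 2, 819.8 in double heterozygote 6 and 201 in double heterozygote 5, and at most 1.96 in the other 8 libraries. In these 3 libraries the median of the pituitary and pineal list stood at 1.62, 1.51 and -0.065 (log2 ratio to the WT mean).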
